A study of Mus musculus with 2 samples.

Results

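The chemokine ligands on the array were examined as a family in Z(+) and Z(-) spleen cells. A probe was taken as a member when its listed gene symbol began with Ccl or Cxcl and a number, or was Xcl1, Cx3cl1, Pf4 or Ppbp. Receptors were left out, and so was 1 probe of Cxcl11, which RefSeq lists as a transcribed pseudogene in the mouse reference. This gave 36 probes of 33 genes, out of 26423 probes and 19084 genes. They were 18 probes of 17 CC ligands, 16 probes of 14 CXC ligands, 1 probe of the C ligand Xcl1 and 1 probe of the CX3C ligand Cx3cl1. A further 7 ligand genes, among them Ccl8, Ccl19, Ccl21a and Ccl27a, had no member probe and were not analysed here.

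The 2 samples were total RNA of Z(+) cells, which bind the peptide Zfra, and of Z(-) cells, which do not, with 1 sample each. The labels name the fractions alone, and that the sort went by Zfra binding is read from this name and from the study's sorts with dye-labelled Zfra. Both fractions came from the spleens of 6 to 8 week old NOD-SCID mice that were naïve. These mice carry the Prkdc scid mutation and lack mature T and B cells, and neither fraction was cultured or treated. A number 8 in the design, read here as 8 combined spleens, is the one count of animals found. Each deposited value stands for 2 technical arrays of the same RNA.

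Chemokines are small secreted proteins that guide moving leukocytes along a concentration gradient. They are named by the spacing of their conserved cysteines: adjacent in CC ligands, parted by a single residue in CXC ligands and by several residues in CX3CL1, while XCL1 lacks one cysteine pair. Each binds to a small set of G protein-coupled receptors. In the spleen, CXCL13 and the ligands of CCR7 place B and T cells in the white pulp, and NK cells and macrophages secrete CC chemokines that recruit other leukocytes.

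The median intensity of all probes was 85.8 in Z(+) against 88.5 in Z(-), and the median log2 difference of all genes, Z(+) minus Z(-), was 0.03. Hyal2, which encodes the membrane receptor of Zfra, had an intensity of 670 in Z(+) against 608 in Z(-). Each fraction is 1 sample, so differences are given without tests. Below an intensity of 2000, a deposited value could be split into its technical arrays in 99.8% of probes in each sample. Above 400 a split is less certain, since more values there can be written as such a pair whether or not they hold one. These arrays show the error of hybridization alone and nothing of the mice or the sort. For intensities of 100 to 400, the median disagreement of the arrays was 1.08-fold in Z(+) against 1.04-fold in Z(-), and the 95th percentile was 1.31-fold in Z(+) against 1.13-fold in Z(-). For intensities of 20 to 100, this percentile was 2.30-fold in Z(+) against 1.499-fold in Z(-). The level of a probe depends on its sequence, so levels of different ligands are not set against each other.

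The median of the chemokine family lay near no difference, while 3 ligands differed strongly. Xcl1 and Ccl5 were far lower in Z(+) and Cxcl13 was far higher. The other 30 ligand genes were within 2-fold. Of the 36 ligand probes, 21 reached the median brightness over all probes, a mean log2 value of 6.42 or an intensity of 85.7. Among these 21, 2 passed 2-fold downward in Z(+), against 6.35% of all probes at that brightness, and 1 was at least 2-fold higher, against 2.41%. With no filter on brightness the same counts, 2 lower and 1 higher, stood against 6.11% and 2.79% of all probes. These shares of ligands are close to the background, so the family does not stand out by the number of its members past 2-fold. At the smaller size of 0.58 on the log2 scale, 7 of the 21 (33.3%) were lower, against 14.5% of all probes at that brightness, and 2 (9.52%) were higher, against 8.02%. The share of lower members was thus above the background at this size, with no test of the difference. Over the 33 genes the median log2 difference was -0.10, beside 0.03 over all genes. CC ligands had a median of -0.21, with 12 of 17 lower in Z(+) by any size, and CXC ligands a median of 0.22, with 8 of 14 higher. Of all genes, 45.7% were lower and 54.1% higher by any size. Brighter member genes were those at or above the median brightness over all genes, a mean log2 value of 6.92. Among them alone, the medians were -0.61 for 7 CC genes and 0.37 for 8 CXC genes. Ccl22 and Cxcl5, at 6.73 and 6.91, reached the median over all probes but not the median over all genes.

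**Figure D1:**
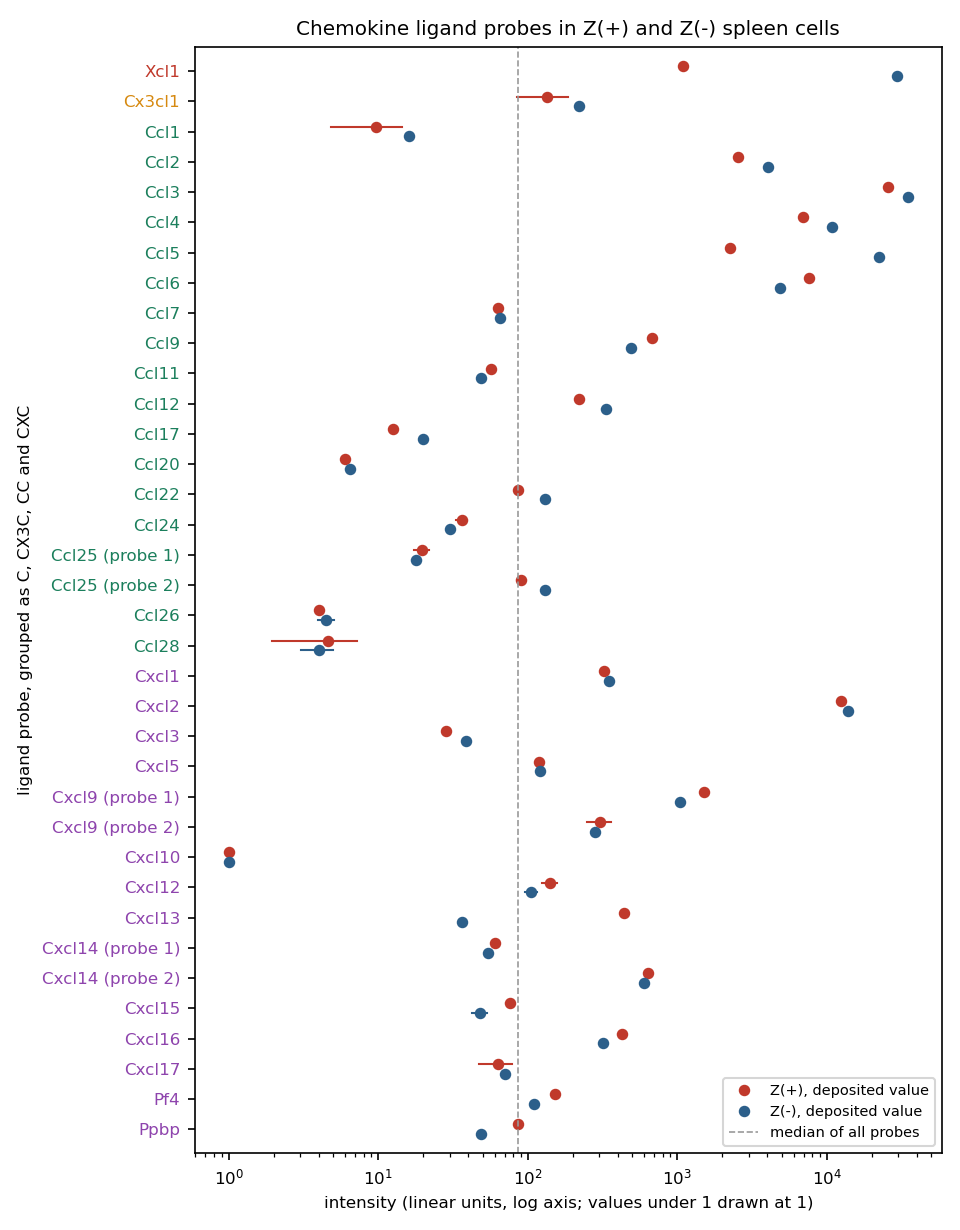
Intensity of each ligand probe (log axis) in Z(+) in red and Z(-) in blue, with a thin line over the technical arrays where the value could be split and a dashed line at the median of all probes. Xcl1, Ccl5 and Cxcl13 are the ligands whose points lie far apart, with Xcl1 at 1092 in Z(+) against 29533 in Z(-).

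**Figure D2:**
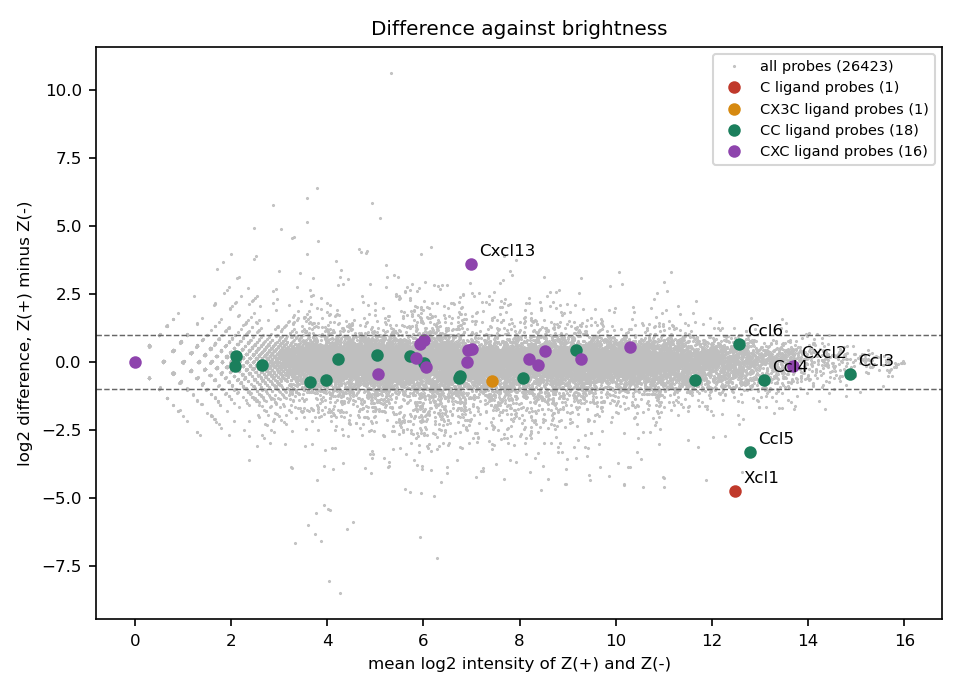
Log2 difference, Z(+) minus Z(-), against the mean log2 intensity, with every probe in grey, ligand probes in colour by class and dashed lines at 2-fold. Cxcl13 lies above most grey points at 3.60, and Ccl5 at -3.32 and Xcl1 at -4.76 lie below most of them at high brightness.

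XCL1, or lymphotactin, is secreted by NK cells and activated CD8+ T cells and attracts the dendritic cells that carry XCR1. Xcl1 had an intensity of 1092 in Z(+) against 29533 in Z(-), which is 27.0-fold lower in Z(+), a log2 difference of -4.76. The technical arrays gave 1067 and 1118 in Z(+), and the Z(-) value was too bright to be split. Xcl1 stayed above the median brightness in Z(+), and it was lower there without being dim. CCL5, or RANTES, is stored and released by NK cells and effector T cells and binds CCR1 and CCR3 among other receptors. Ccl5 had 2238 in Z(+) against 22398 in Z(-), a log2 difference of -3.32. For both genes the fall far exceeded the spread of technical arrays among the brightest probes that could be split, of which 95% agreed within 1.10-fold in either fraction. Where several pairs of arrays fitted a value, only a pair within 1.5-fold was accepted, so this agreement is in part set by that rule.

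Most markers of NK cells, and the Cd3 genes among T cell markers, were lower in the same fraction. Of 10 NK cell markers, 8 passed 2-fold downward in Z(+) and 0 upward, with a median log2 difference of -4.15, and their summed intensity was 3757 in Z(+) against 51371 in Z(-). Eomes at 898 in Z(+) against 661 in Z(-), and Ncr1 at 5.52 and 5.50 in these fractions, were the markers that did not pass it. Ncr1 was dim in both fractions, so its like values say little. Of the 10, 7 reached the median brightness over all genes, and Ncr1, Klrb1c and Klrk1 did not. Of 7 T cell markers, Cd3d, Cd3e, Cd3g and Cd28 were at least 2-fold lower, these being 4 of the list, with a median of -1.17 and a summed intensity of 2051 in Z(+) against 12483 in Z(-). Cd4 had 40.1 in Z(+) against 36.5 in Z(-), and Cd8b1 had 71.3 in Z(+) against 74.0 in Z(-). Cd8a had 89.0 in Z(+) against 153 in Z(-). Cd4, Cd8b1 and Cd8a were all within 2-fold and below the median brightness over all genes. None of the markers in either list was at 0, and NOD-SCID mice lack mature T cells. Fewer cells of a type and less RNA per cell cannot be told apart in RNA of a whole fraction, and the part of these cells in the lower Xcl1 and Ccl5 was not tested.

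The sequence before the transcription start is given for the ligands with the largest difference in each direction, so that their promoters can be compared. The RefSeq promoter sequences used here (GRCm38.p6) covered 23 of the 33 genes, with 24 start sites, and those of Ccl5 and Ccl4 were not analysed here. Xcl1 lies on the minus strand at chr1:164935523-164935772 and Cxcl13 on the plus strand at chr5:95956689-95956938. Each run holds the 250 bases before the start, 5′ to 3′ along the gene. Capitals mark matches to a RUNX motif (TGTGGTT, here on the reverse strand) in Xcl1 and to a TATA box (TATAAA) in Cxcl13.
Xcl1: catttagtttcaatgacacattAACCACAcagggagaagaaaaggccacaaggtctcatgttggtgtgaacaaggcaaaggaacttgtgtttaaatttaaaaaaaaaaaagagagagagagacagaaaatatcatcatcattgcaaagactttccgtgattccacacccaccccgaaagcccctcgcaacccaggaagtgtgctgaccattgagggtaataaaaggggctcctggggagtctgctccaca
Cxcl13: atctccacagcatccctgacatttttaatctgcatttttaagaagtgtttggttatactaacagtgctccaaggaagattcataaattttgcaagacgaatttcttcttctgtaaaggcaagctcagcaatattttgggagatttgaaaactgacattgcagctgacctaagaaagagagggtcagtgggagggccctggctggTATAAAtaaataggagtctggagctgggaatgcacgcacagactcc
The TATA box match of Cxcl13 began 46 bases before the start, and the RUNX match of Xcl1 began 228 bases before it. Both strands were searched for 8 motifs, and these were the only matches in either promoter. A TATA box match stood in 12.4% of all 32851 promoters of this length and in 9 of the 24 ligand promoters, and a RUNX match in 4.40% of all and in 2 of 24. The other motifs were NF-kappaB by its consensus, AP-1 (TGANTCA), T-box (TCACACCT), the PU.1 core (GAGGAA), ISRE by its name and STAT (TTCNNNGAA), found in 7.25%, 6.75%, 1.12%, 23.3%, 2.98% and 7.02% of all promoters. A match is a description of the letters and not a bound site.

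CXCL13 is secreted by follicular stromal cells and some macrophages and draws B cells into follicles through CXCR5. Cxcl13 had an intensity of 443 in Z(+) against 36.5 in Z(-), which is 12.1-fold higher in Z(+), a log2 difference of 3.60. Its technical arrays gave 432 and 455 for Z(+), and 35.6 and 37.4 for Z(-), so the fractions did not overlap. The Z(-) value is below the median brightness of all probes, and the difference was 2.51 with a pseudocount of 50. Each of 14 macrophage markers was brighter in Z(+), and 8 passed 2-fold, with a median of 1.55 and a summed intensity of 82011 in Z(+) against 44907 in Z(-). Of 11 markers of stromal and follicular dendritic cells, 1 was at least 2-fold higher, Dcn, and 2 at least 2-fold lower, Pdpn and Col1a1, with a median of 0.19 and a summed intensity of 937 in Z(+) against 907 in Z(-). Cr2, the complement receptor of follicular dendritic cells, had 29.0 in Z(+) against 26.0 in Z(-), and Madcam1 had 90.3 and 79.0 in these fractions. Of the 11, 2 reached the median brightness over all genes, Ltbr and Pdgfrb, while all 14 macrophage markers did. Dcn, Pdpn, Col1a1, Cr2 and Madcam1 were dimmer than that median, so most of the stromal list says little of these cells. No marker of either list was at 0. The part of these cells in the higher Cxcl13 was not tested.

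CCL3 and CCL4, the macrophage inflammatory proteins 1-alpha and 1-beta, are CC chemokines that recruit monocytes and lymphocytes, and both had a lower intensity in Z(+) without reaching 2-fold. Ccl3 had an intensity of 25692 in Z(+) against 34945 in Z(-), a log2 difference of -0.44, and Ccl4 had 6885 in Z(+) against 10905 in Z(-), a difference of -0.66. Both were bright in both fractions, and both differences were smaller than that of Ccl5. Mast cells and basophils, which also release these chemokines, had 8 of 9 markers past 2-fold downward in Z(+), with a median of -3.87, a summed intensity of 4813 in Z(+) against 40637 in Z(-) and no marker at 0. NK cells and macrophages secrete CC chemokines too. The NK cell markers had a median of -4.15, while the 14 macrophage markers, all higher in Z(+), had a median of 1.55. The part of any of these cells in the values of Ccl3 and Ccl4 was not tested.

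CCL6 and CCL9 are made by myeloid cells of the mouse and act on CCR1. They were the CC ligands above the median brightness that had a higher intensity in Z(+). Ccl6 had 7582 in Z(+) against 4834 in Z(-), a log2 difference of 0.65. Ccl9 had 676 in Z(+) against 494 in Z(-), a difference of 0.45, and its technical arrays gave 666 and 685 for Z(+), and 487 and 501 for Z(-). The arrays of Ccl9 did not overlap between fractions, though neither gene reached 2-fold. In the order of protein-coding genes of the reference, Ccl5, Ccl9, Ccl6, Ccl3 and Ccl4 follow each other with no other gene between them. Their log2 differences in this order were -3.32, 0.45, 0.65, -0.44 and -0.66, so neighbours in this cluster differed in sign and in size. Of 9 monocyte markers, 1 passed 2-fold, upward, with a median of 0.11 and a summed intensity of 128191 in Z(+) against 112123 in Z(-), and the part of these cells and of macrophages in the values of Ccl6 and Ccl9 was not tested.

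**Figure D3:**
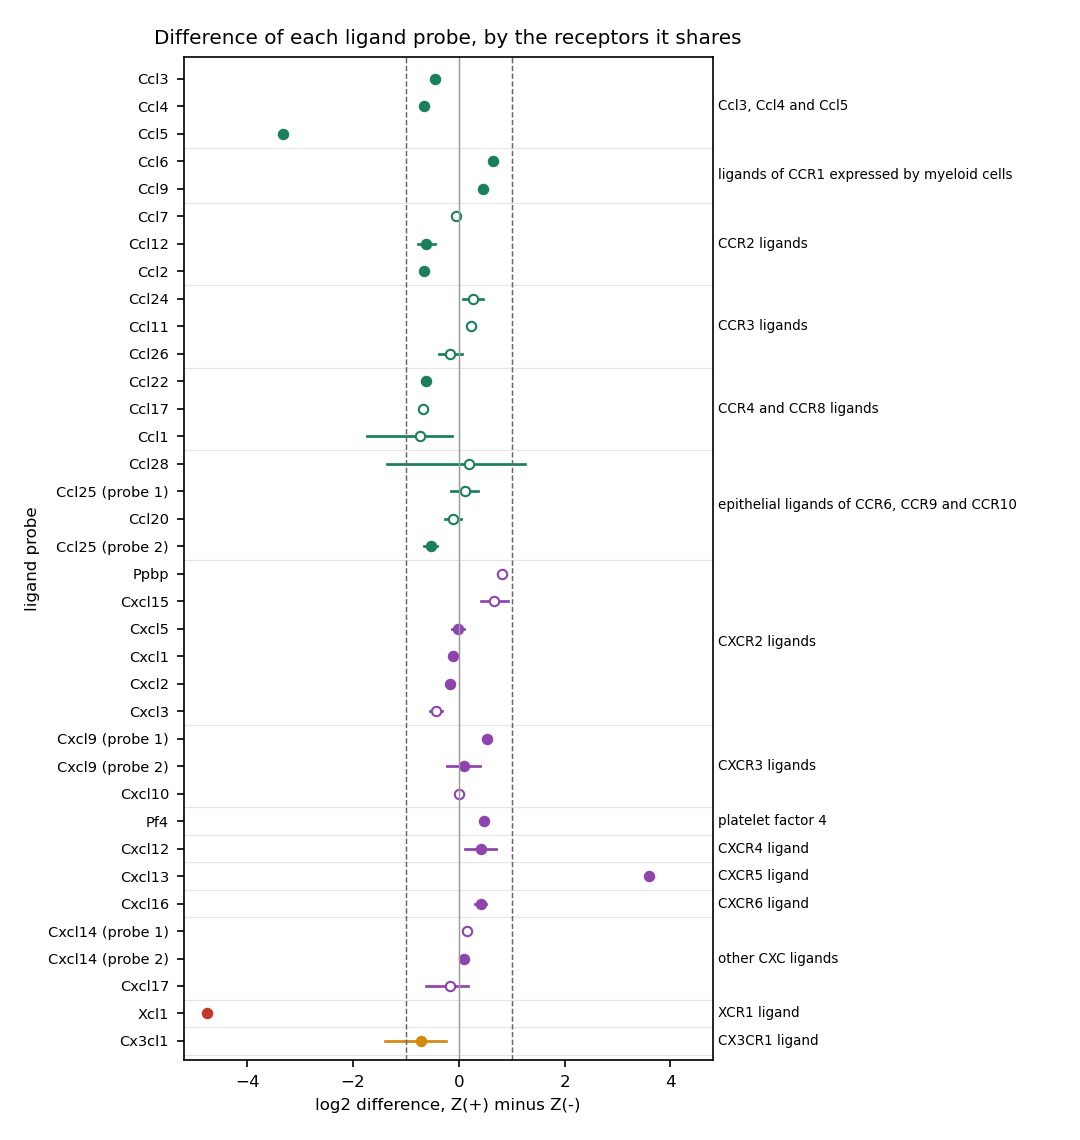
Log2 difference, Z(+) minus Z(-), of each ligand probe, grouped mainly by shared receptors and coloured by class. Open points lie below the median brightness, lines span the technical arrays where both values could be split, and dashed lines mark 2-fold. Ccl5 stands apart from Ccl3 and Ccl4, and most CXC points lie right of 0 while most CC points lie left of it.

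The ligands of CCR2, which recruit monocytes, had a lower intensity in Z(+) without reaching 2-fold. Ccl2, also known as MCP-1, had 2561 in Z(+) against 4026 in Z(-), a log2 difference of -0.65. Ccl12, a mouse CCR2 ligand, had 219 in Z(+) against 334 in Z(-), a difference of -0.61, with arrays at 209 and 228 for Z(+), and 313 and 355 for Z(-), which did not overlap. Ccl7 was below the median brightness at 63.0 in Z(+) against 65.5 in Z(-).

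CCL22 and CCL17 attract T cells with CCR4, and CX3CL1, or fractalkine, is held on the cell membrane and binds CX3CR1. In the reference Ccl22, Cx3cl1 and Ccl17 follow each other with no other protein-coding gene between them, and all had a lower intensity in Z(+) by a similar size. Ccl22 had 86.0 in Z(+) against 131 in Z(-), a log2 difference of -0.61, and its arrays did not overlap, at 84.8 and 87.1 for Z(+), and 126 and 137 for Z(-). Cx3cl1 had 135 in Z(+) against 221 in Z(-), a difference of -0.71. Its arrays in Z(+) disagreed, at 84.2 and 186, while those of Z(-) gave 219 and 222, so the size of this difference is poorly known. Ccl17 was dim at 12.5 in Z(+) against 20 in Z(-), a difference of -0.68 that was -0.16 with a pseudocount of 50. The dim Ccl1, a ligand of CCR8, had 9.66 in Z(+) against 16 in Z(-), with arrays at 4.84 and 14.5 in Z(+) and a difference of -0.73, or -0.15 with that pseudocount. Of 8 dendritic cell markers, all had a lower intensity in Z(+) and 2 by at least 2-fold, with a median of -0.73 and a summed intensity of 2756 in Z(+) against 4404 in Z(-). Their part in the values of Ccl22 and Ccl17 was not tested.

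The CCR3 ligands, which attract eosinophils, were dim. Ccl11, or eotaxin, had 56.5 in Z(+) against 48.5 in Z(-), Ccl24 had 36.1 in Z(+) against 30.0 in Z(-), and Ccl26, known as a CCR3 ligand in human, had 4.0 in Z(+) against 4.51 in Z(-). Among the ligands of epithelial tissues, Ccl20 and Ccl28 were dim as well. Ccl20 had 6.01 in Z(+) against 6.5 in Z(-), and Ccl28 had 4.59 in Z(+) against 3.99 in Z(-), with arrays in Z(+) that differed by 3.74-fold. Ccl25, which draws cells with CCR9 to the gut and thymus, had a pair of probes that disagreed. Its brighter probe had 90.7 in Z(+) against 131 in Z(-), a log2 difference of -0.53, and its dimmer probe had 19.6 in Z(+) against 18.0 in Z(-), a difference of 0.12.

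Of the CXC ligands that attract neutrophils through CXCR2, Cxcl1, Cxcl2 and Cxcl5 lay near no difference. Cxcl2, or MIP-2, was bright at 12473 in Z(+) against 13940 in Z(-), a log2 difference of -0.16. Cxcl1, or KC, had 324 in Z(+) against 348 in Z(-), a difference of -0.10, with arrays at 321 and 326 for Z(+), and 339 and 356 for Z(-). Cxcl5 had 120 in Z(+) against 121 in Z(-), and its arrays overlapped. The difference of Cxcl5 was -0.01 and turned to 0.03 when each sample was centred on its median or quantile normalized. Cxcl3 was dim at 28.5 in Z(+) against 38.5 in Z(-), a difference of -0.43, and Cxcl15, or lungkine, was dim at 76.1 in Z(+) against 48.1 in Z(-), a difference of 0.66. Of 8 neutrophil markers, 4 were at least 2-fold lower in Z(+), with a median of -0.89 and a summed intensity of 161426 in Z(+) against 253165 in Z(-). Their part in the values of these ligands was not tested.

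Cxcl1, Cxcl2 and Cxcl3 are shown together because their promoters share a stretch of 11 letters. The 100 bases before each start, on the plus strand, are at chr5:90891145-90891244 for Cxcl1, chr5:90903799-90903898 for Cxcl2 and chr5:90786001-90786100 for Cxcl3 (RefSeq, GRCm38.p6). Capitals mark matches to the NF-kappaB consensus and, in Cxcl3, also to a TATA box.
Cxcl1: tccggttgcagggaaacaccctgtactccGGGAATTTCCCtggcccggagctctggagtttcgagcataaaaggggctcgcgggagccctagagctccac
Cxcl2: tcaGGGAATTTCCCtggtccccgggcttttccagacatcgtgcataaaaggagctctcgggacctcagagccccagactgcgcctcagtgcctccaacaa
Cxcl3: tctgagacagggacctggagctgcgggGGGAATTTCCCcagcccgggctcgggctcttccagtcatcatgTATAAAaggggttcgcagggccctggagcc
The stretch GGGAATTTCCC holds a pair of overlapping NF-kappaB matches and began 71, 97 and 73 bases before the start of Cxcl1, Cxcl2 and Cxcl3. It stood in 3 of the 24 ligand promoters, these 3, and in 12 of all 32851 promoters (0.037%). An NF-kappaB match of any letters stood in 7 of the 24 ligand promoters, which is 29.2%, and in 7.25% of all promoters. The ligands with this stretch had log2 differences of -0.10, -0.16 and -0.43.

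The platelet chemokines had a higher intensity in Z(+) within 2-fold. Pf4, platelet factor 4, had 153 in Z(+) against 110 in Z(-), a log2 difference of 0.47. Its arrays did not overlap, at 148 and 158 for Z(+), and 108 and 112 for Z(-). Ppbp, whose product is processed to neutrophil-activating peptide 2, had 86.0 in Z(+) against 49.0 in Z(-), a difference of 0.81 with arrays at 85.8 and 86.2 for Z(+), and 47.5 and 50.5 for Z(-), or of 0.46 with a pseudocount of 50. Of 8 markers of megakaryocytes and platelets, 6 had a higher intensity in Z(+), none by 2-fold. At least 2-fold lower was 1, Gp9, at 1.97 in Z(+) against 94.0 in Z(-). Of the 8, 3 reached the median brightness over all genes, Gp6, Itgb3 and Vwf, and the others, Gp9 among them, were dimmer. The 8 markers had a median of 0.21 and a summed intensity of 4665 in Z(+) against 4166 in Z(-), and none was at 0. Their part in the values of Pf4 and Ppbp was not tested.

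The ligands of CXCR3, which attract activated T and NK cells after interferon-gamma, were measured for Cxcl9, while the Cxcl10 probe lay at 0.52 in Z(+) against -0.01 in Z(-) and, under the floor of 1 in both, gave no difference. The brighter probe of Cxcl9 had 1514 in Z(+) against 1045 in Z(-), a log2 difference of 0.54, with arrays at 1508 and 1520 for Z(+), and 1031 and 1059 for Z(-). The dimmer probe had 305 in Z(+) against 283 in Z(-), a difference of 0.11, and its arrays overlapped. The excluded Cxcl11 probe had 64.6 in Z(+) against 48.5 in Z(-).

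Cxcl16, a membrane-bound ligand of CXCR6 made by macrophages and dendritic cells, had 426 in Z(+) against 320 in Z(-), a log2 difference of 0.41. Its arrays gave 404 and 449 for Z(+), and 316 and 325 for Z(-) and did not overlap. Cxcl12, or SDF-1, which retains blood cell precursors through CXCR4, had 141 in Z(+) against 105 in Z(-), a difference of 0.42, with arrays at 125 and 157 for Z(+), and 96.0 and 115 for Z(-). Cxcl14 had a pair of probes with like differences, 639 in Z(+) against 596 in Z(-) for the brighter and 60.6 in Z(+) against 54.5 in Z(-) for the dimmer. Cxcl17 was dim at 63.0 in Z(+) against 71.0 in Z(-), and its arrays overlapped.

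Of the 36 ligand probes, 29 could be split in both samples. The arrays of Z(+) were all lower in 9 of the 29, against 30% of all probes split in both, all higher in 12, against 38.6%, and overlapped in 8, against 31.4%. The ligands thus separated by technical arrays about as often as other probes did, and separation of the arrays alone does not mark them out.

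Among 22 measured chemokine receptors, 5 passed 2-fold downward and 1 upward in Z(+). Their median log2 difference was -0.20. With no filter on brightness, 6.27% of all genes were that much lower and 2.44% that much higher. Xcr1, the receptor of XCL1, had 63.1 in Z(+) against 123 in Z(-), a difference of -0.97. Ccr1, a receptor of CCL3, CCL5, CCL6 and CCL9, had 683 in Z(+) against 1479 in Z(-), a difference of -1.11. Receptors at least 2-fold lower beside a ligand of higher intensity in Z(+) included Cxcr6, at 56.7 in Z(+) against 527 in Z(-) beside its ligand Cxcl16, and Cxcr3, at 131 in Z(+) against 691 in Z(-) beside Cxcl9. Cxcr2, the receptor of CXCL1 and CXCL2, had 848 in Z(+) against 3599 in Z(-), while its ligands Cxcl1 and Cxcl2 were nearly alike in both fractions. Cxcr5, the receptor of CXCL13, had 2646 in Z(+) against 3154 in Z(-), within 2-fold, beside the 12.1-fold higher Cxcl13. Ccr3, which binds CCL11 and CCL5, was the receptor that passed 2-fold upward, at 117 in Z(+) against 29.0 in Z(-), a difference of 2.01, and it was dim. Of 18 pairs set side by side, each ligand with 1 of its receptors, Ccl5 and Ccr1 both passed 2-fold. Ccl5 and Ccr3, not among these pairs, both passed it in opposite directions.

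**Figure D4:**
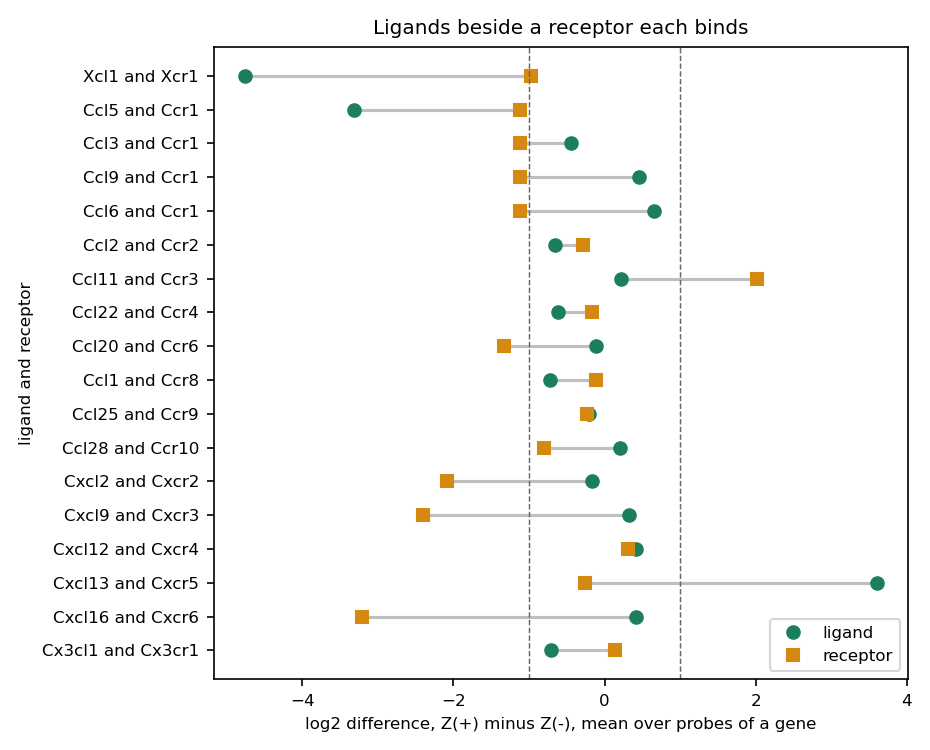
Log2 difference, Z(+) minus Z(-), of 18 ligands (circles) and of 1 receptor that each binds (squares), with dashed lines at 2-fold. Cxcl13 lies at 3.60 with Cxcr5 at -0.25, and Cxcl16 lies at 0.41 with Cxcr6 at -3.22.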

How the data were processed

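Amplified RNA of each fraction carried Cy5 and was read on oligonucleotide arrays in 1 colour. The authors deposited 1 linear intensity per probe and sample, from -1.001 to 65296 in Z(+) and from -1.0001 to 65528 in Z(-). For scanner software, background correction and normalization, the methods were not given in the sources used here.

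Values under 1 were set to 1 and log2 was taken, with no further normalization. Differences are Z(+) minus Z(-). A difference of 1 on the log2 scale (2-fold) was the call, with no test because each group has 1 sample. Several probes of a gene were averaged on the log2 scale. Gene symbols came from the platform annotation, in which 21876 probes have 1 symbol, 0 have several and 4547 have none. The gene IDs of all 36 ligand probes matched RefSeq (GRCm38.p6), with 0 changed symbols. The array names no build, so only gene order and promoters are taken from the reference.

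Deposited values below 2000 were written as the mean of 2 whole-number array intensities with factors of 0.968 and 1.03 in Z(+) and 0.990 and 1.01 in Z(-). Where several pairs fitted a value, a pair was kept only if it was the single one within 1.5-fold. The split was tested on simulated data. The simulated arrays agreed closely, so they do not show how this rule treats bright arrays that disagree. With brightness, more values can be written this way whether or not they hold such a pair. A split above 400, such as those of Ccl9, the brighter Cxcl9 probe, the Z(+) values of Cxcl13, Cxcl16 and Xcl1 and the brighter Cxcl14 probe, therefore rests on the structure found at dimmer values.

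Members, gene lists and the choice of the largest differences were made with earlier results of these data known. Named are all ligands at or above the median brightness or past 2-fold, and dim ones by group. The promoters and the shared stretch were chosen after values were seen. Calculations used statsmodels 0.14.6 (loess span 0.3), pandas 2.3.3 and numpy 2.4.6 under Python 3.11.15, and plots used matplotlib 3.10.9. Alternatives were 3 scalings, a pseudocount of 50, other brightness filters and thresholds, and the brightest probe of each gene. The number of arrays limits the precision.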

Additional observations from a re-analysis of the deposited data

How the results depend on the processing

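Xcl1 and Ccl5 were the ligands at least 2-fold lower in Z(+), and Cxcl13 the one at least 2-fold higher, under each of the 3 scalings and with a pseudocount of 50. At 1.5-fold (0.58 on the log2 scale), 7 of the 21 ligand probes at or above the median brightness were lower, and 2 higher. The shares of all probes at that brightness were 14.5% and 8.02%. Above the upper quartile of brightness (a mean log2 value of 8.98), and among genes with the brightest probe of each gene, 0 ligands were higher past 2-fold, because Cxcl13 then fell below the brightness required. The median of CC ligands, -0.21, was -0.61 over members at or above the median brightness over all genes. It was -0.44 with the brightest probe of each gene. The median of all ligands, -0.10, lay between -0.13 (loess) and -0.01 (pseudocount of 50), and that of CXC ligands, 0.22, between 0.19 (that pseudocount) and 0.37 (members at or above the median), with the sign kept in both. Of 36 single probes, 9 moved by more than the technical spread of probes of like brightness under quantile normalization and 5 with the pseudocount. Values too bright to be split were given the spread of probes at 1000 to 2000. The sign turned for Cxcl5 alone, at 0.03. No paired analysis was possible because each fraction has 1 sample. Technical arrays measure hybridization alone, and dim probes limit the sizes given.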
